A study of Mus musculus with 2 samples.

Results

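The BCL2 family decides whether the outer membrane of the mitochondrion is opened during apoptosis. Anti-apoptotic members hold the effectors BAX and BAK in check, and the effectors form pores that release cytochrome c. Of the sequence segments that define the family, BH3-only members carry only the BH3 segment, a short helix. With it they occupy the groove of anti-apoptotic members or act on the effectors directly. The balance is set partly by transcription and partly by protein turnover and phosphorylation, and RNA shows only the first of these. The 10 genes of this family considered here were taken by symbol from the deposited table of 54713 genes, where each was found once: 3 anti-apoptotic genes (Bcl2, Bcl2l1 and Mcl1), 2 effector genes (Bax and Bak1) and 5 BH3-only genes (Bcl2l11, Bbc3, Pmaip1, Bid and Bad).

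RNA was sequenced from SV40 MES13, a mouse kidney line labelled as mesangial, the contractile cell type that holds glomerular capillaries together. SV40 MES13 carries the SV40 early region, whose large T antigen binds p53 and RB family proteins. The Lv_AI662270 group is the line infected with a lentivirus for the long noncoding RNA AI662270 (genotype labelled as AI662270 overexpression), and the Lv_NC group is the line infected with the control virus (genotype labelled WT). The count column used for Lv_NC is headed Lv_Con and was matched to it through that description. The labels' treatment protocol also says that the virus expressed SV40 MES13 and that Sox9 expression was checked, which does not match the titles and genotypes. Both were selected with 0.5 mg/ml puromycin and kept in 0.25 mg/ml puromycin with 10% serum. The medium of both also held 100 units/ml penicillin and 100 ug/ml streptomycin, and both were labelled untreated beyond that. The labels call both stable lines and do not say whether either grew from 1 clone. There was 1 library per group, so every difference below stands without a check in replicates, no p-value is computed, and the comparisons are between these 2 libraries rather than between conditions.

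The libraries held 15062482 counts (Lv_AI662270) and 15727023 counts (Lv_NC). AI662270 had 241 counts in the Lv_AI662270 library and 0 in the Lv_NC library, where a count of 0 allows up to 3 counts. Of the 10 mesangial markers examined, 5 reached a mean of 1 CPM (counts scaled by the TMM method to libraries of 1000000), with a summed level over those 5 of 38.6 CPM in Lv_AI662270 and 21.5 CPM in Lv_NC. They moved in opposite directions: Pdgfrb, Des and Acta2 were higher in Lv_AI662270, and Gata3 and Serpine2 were lower. Acta2 had 171 counts in Lv_AI662270 and 12 in Lv_NC. Gata3 had 25 in Lv_AI662270 and 76 in Lv_NC, and Serpine2 10 in Lv_AI662270 and 28 in Lv_NC. Acta2, Gata3 and Serpine2 passed the 2-fold rule defined below. Itga8, Thy1 and Ren1 had 0 counts in both libraries, so the labelled cell type was only partly visible in its markers. Some markers of podocytes (2 of 5), tubules (2 of 6) and immune cells (1 of 5) reached that level too, those of endothelium did not (0 of 5), and the podocyte gene Nphs1 was at 0 in both libraries. Of the podocyte list, Podxl was at 42.4 CPM in Lv_AI662270 and 122.9 CPM in Lv_NC, Synpo at 39.4 CPM in Lv_AI662270 and 25.9 CPM in Lv_NC, and Wt1 had 22 counts in Lv_AI662270 and 0 in Lv_NC. The tubule list summed to 52.2 CPM in Lv_AI662270 and 47.8 CPM in Lv_NC, above the mesangial sums. Most of it came from Lrp2, and 3 of the 6 tubule genes had 0 counts in both libraries. The part of cell identity in the values below was not tested.

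What the members share in sequence is the BH3 core, and the stretches that encode it are shown because genes of all 3 roles carry this segment. In the main coding transcript of each gene in GENCODE M21 (build mm10), the coding frame was searched for a leucine codon, 3 further codons, a codon for glycine, alanine or serine, and a codon for aspartate. Each of 9 members had exactly 1 match. Pmaip1, whose mouse protein has a pair of BH3 segments, had 2 matches and is not shown. Capitals mark the leucine codon and the 2 codons of the small residue and aspartate.
Bcl2: CTCcgccgggctGGGGATgacttctctcgt
Bcl2l1: CTGagagaggcaGGCGATgagtttgaactg
Mcl1: CTGcggcgcgtgGGCGACggcgtgcagcgc
Bax: CTCcggcgaattGGAGATgaactggacagc
Bak1: CTTgctctcatcGGAGATgatattaaccgg
Bcl2l11: CTGcggcggatcGGAGACgagttcaacgaa
Bbc3: CTGcggcggatgGCGGACgacctcaacgcg
Bid: CTCgcccaaataGGCGATgagatggaccac
Bad: CTCcgaaggatgAGCGATgagtttgagggt

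The small residue before the aspartate was glycine in 7 of these 9 stretches, alanine in Bbc3 and serine in Bad. Part of the identity between stretches is set by the search, which required the codons shown in capitals. Over the 30 bases, the 36 pairs shared between 13 and 23 identical bases. The highest value was that of Bcl2l11 and Bbc3, the genes of BIM and PUMA, which bind all the main anti-apoptotic proteins. The deposited table places Bcl2 on chromosome 1 from 106538178 to 106714274, Mcl1 on chromosome 3 from 95658788 to 95663176, Bax on chromosome 7 from 45461697 to 45466898 and Bak1 on chromosome 17 from 27019810 to 27029009. It places Bbc3 on chromosome 7 from 16308393 to 16318205, Bid on chromosome 6 from 120891930 to 120916853 and Bad on chromosome 19 from 6941861 to 6951898. The BH3 stretch lies in exon 1 of 2 in Bcl2 (chr1:106712572-106712601, minus strand), exon 2 of 3 in Bcl2l1 (chr2:152829694-152829723, minus strand) and exon 1 of 3 in Mcl1 (chr3:95659436-95659465, plus strand). It lies in exon 3 of 6 in Bax (chr7:45465994-45466023, minus strand) and exon 4 of 6 in Bak1 (chr17:27022528-27022557, minus strand). Among BH3-only genes it lies in exon 3 of 4 in Bcl2l11 (chr2:128147150-128147179, plus strand), exon 3 of 4 in Bbc3 (chr7:16313773-16313802, plus strand), exon 4 of 6 in Bid (chr6:120897286-120897315, minus strand) and exon 3 of 4 in Bad (chr19:6950792-6950821, plus strand).

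The first comparison asked whether any member differed by a factor of 2 between the line with AI662270 and the control line. None of the 10 did by the rule used here, which needs a log2 ratio (computed with 0.5 CPM added to each level) at or beyond 1 or -1, and a 95% exact counting interval of the ratio that leaves out 1. Over all 13268 measured genes, those with a mean of at least 1 CPM, the same rule called 11.3% (5.59% higher and 5.72% lower), a share small enough that 0 of 10 is no result about the members. The members' log2 ratios lay between -0.98 for Pmaip1 and 0.62 for Bcl2l11. Their median was -0.02, as was that of all measured genes. The median size of the log2 ratio without its sign was 0.31 for members and 0.34 for measured genes. At a 1.5-fold threshold 2 members were called, Bcl2l11 higher and Pmaip1 lower, against 27.1% of measured genes (12.9% higher and 14.3% lower). In the authors' deposited table, which tests 1 library against 1 library, 897 of 20667 genes had an adjusted p-value under 0.05 (4.34%), and 0 of the 10 members were among them. The lowest adjusted p-value of a member in the authors' deposited table was 0.213, for Pmaip1, and the highest was 1.

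**Figure D1:**
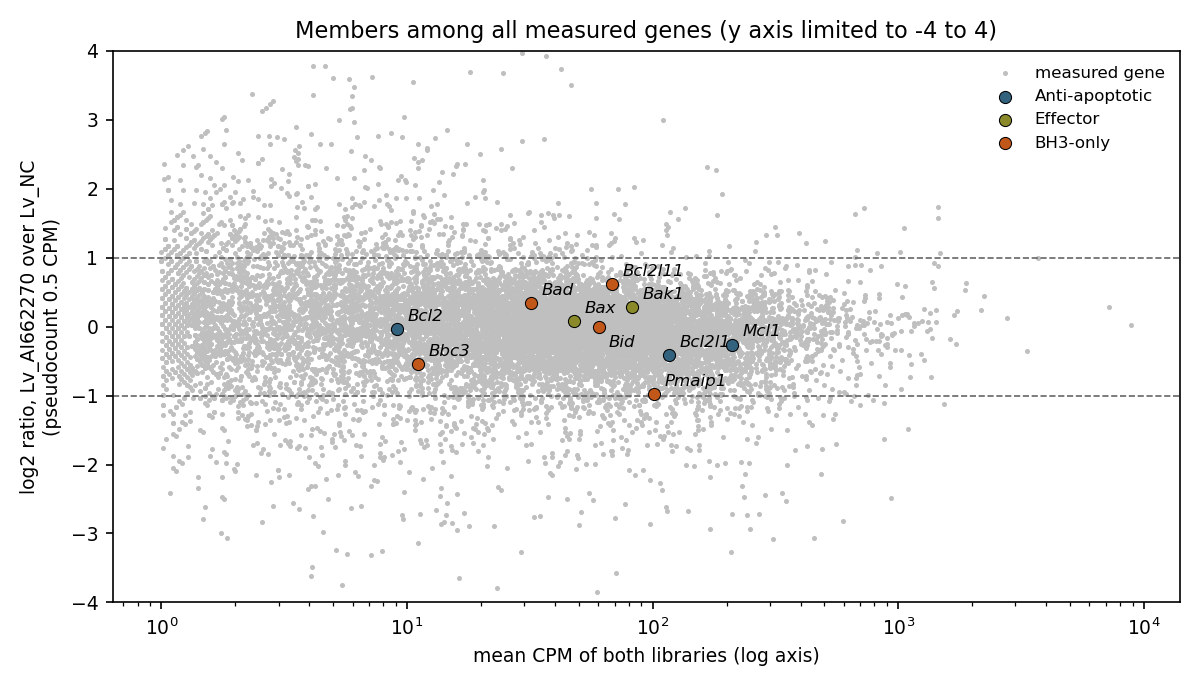
Each grey point is 1 of 13268 measured genes, with its mean CPM over both libraries on a log axis and its log2 ratio of Lv_AI662270 over Lv_NC with 0.5 CPM added; 13 genes beyond 4 or -4 are outside the axis. The 10 members, coloured by role, all lie between the dashed lines at 1 and -1, and Pmaip1 lies next to the lower line at -0.98.

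Among anti-apoptotic members, Mcl1 and Bcl2l1 were moderately lower in the Lv_AI662270 library and Bcl2 was level. RNA here comes from whole cultures, in which fewer cells that express a gene and less of its RNA per cell cannot be told apart. Mcl1 encodes a short-lived protein that binds BIM, PUMA and NOXA. Its level was 191 CPM (184 to 198) in Lv_AI662270 and 230 CPM (222 to 237) in Lv_NC, where the range beside a level is a 95% exact Poisson interval. The intervals did not overlap, and the level was 1.20-fold lower (1.14 to 1.26). These ranges, here and below, cover counting error only, and 67.7% of measured genes had a ratio whose counting interval left out 1. Of the 10 members, 3 had an interval above 1 (31.9% of measured genes) and 4 had one below 1 (35.8%), so such an interval does not set the members apart.

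Bcl2l1, the gene of BCL-XL, had 1560 counts or 100.1 CPM (95.2 to 105) in Lv_AI662270 and 2033 counts or 134 CPM (128 to 140) in Lv_NC. It was 1.34-fold lower (1.25 to 1.43), the largest difference among the 3 anti-apoptotic members. Bcl2, which gave the family its name, had 140 counts in each library. That was 8.99 CPM (7.56 to 10.6) in Lv_AI662270 and 9.21 CPM (7.75 to 10.9) in Lv_NC, with overlapping intervals and a ratio of 0.976 (0.766 to 1.24). Differences of Bcl2 within that interval were not detectable at this depth.

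The effector genes were level or slightly higher. Bak1, whose product sits in the outer mitochondrial membrane, had 1412 counts or 90.6 CPM (86.0 to 95.5) in Lv_AI662270 and 1132 counts or 74.5 CPM (70.2 to 78.9) in Lv_NC, a ratio of 1.22 (1.12 to 1.32). Bax, whose product moves from the cytosol to the mitochondrion on activation, had 769 counts or 49.4 CPM (45.9 to 52.97) in Lv_AI662270 and 709 counts or 46.6 CPM (43.3 to 50.2) in Lv_NC. Its intervals overlapped and its ratio was 1.06 (0.954 to 1.17), although the interval of the ratio lay above 1 when libraries were scaled by total counts or upper quartiles. Bak1 is overlapped along its whole span by Ggnbp1 on the other strand, which had 52 counts in Lv_AI662270 and 45 in Lv_NC, and the strand setting of the counting is not given in the sources used here.

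The BH3-only genes spread more widely, and in both directions. Pmaip1, the gene of NOXA, which binds MCL1 and is known as a target of p53 and of ATF4, had 1066 counts or 68.4 CPM (64.4 to 72.6) in Lv_AI662270 and 2054 counts or 135 CPM (129 to 141) in Lv_NC. The library with AI662270 was 1.97-fold lower (1.83 to 2.13), the largest difference in the family and just short of the 2-fold rule. Of all measured genes, 88.1% had a log2 ratio smaller in size than that of Pmaip1.

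Bcl2l11, the gene of BIM, a known target of FOXO3 whose protein is removed after phosphorylation by ERK, had 1289 counts or 82.7 CPM (78.3 to 87.4) in Lv_AI662270 and 816 counts or 53.7 CPM (50.1 to 57.5) in Lv_NC. It was 1.54-fold higher (1.41 to 1.68), the largest difference upward among the members, and 74.5% of measured genes had a smaller one in size. Bbc3, the gene of PUMA, was the least abundant BH3-only member. It had 139 counts or 8.92 CPM (7.4997 to 10.5) in Lv_AI662270 and 202 counts or 13.3 CPM (11.5 to 15.3) in Lv_NC. Bbc3 was 1.49-fold lower (1.19 to 1.86).

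Bad, whose protein is kept inactive by phosphorylation and 14-3-3 proteins, had 558 counts or 35.8 CPM (32.9 to 38.9) in Lv_AI662270 and 429 counts or 28.2 CPM (25.6 to 31.0) in Lv_NC, a ratio of 1.27 (1.12 to 1.44). Bid, which caspase-8 cleaves to carry the death receptor signal to mitochondria, was at 60.3 CPM (56.5 to 64.2) in Lv_AI662270 and 60.2 CPM (56.4 to 64.3) in Lv_NC, with a ratio of 1.0003 (0.912 to 1.10). Of the 5 BH3-only genes, Pmaip1 and Bbc3 were thus lower, Bcl2l11 and Bad higher, and Bid level. The start of Bad overlaps Gpr137 and the end of Bid overlaps Bcl2l13, each on the other strand, and reads from such stretches cannot be told apart without strand. Bid is also overlapped on its own strand by Gm44260, with 36 counts in Lv_AI662270 and 19 in Lv_NC, and strand would not separate those reads. The genes that overlap Bax (Gm45808) or Bcl2 on the same strand had 0 counts in both libraries.

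**Figure D2:**
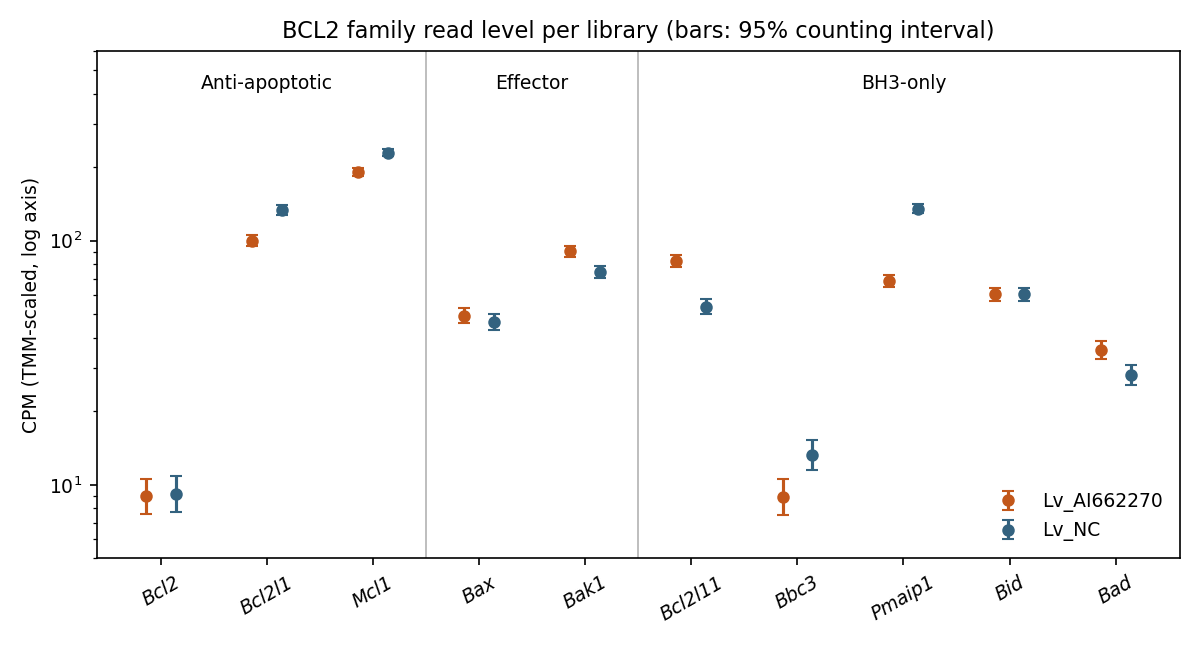
Points are the CPM of each member in the Lv_AI662270 library (orange, left) and the Lv_NC library (blue, right) on a log axis, with 95% exact Poisson intervals, which cover counting error only. The intervals of Bcl2, Bax and Bid overlap between libraries, and Pmaip1 shows the widest gap, at 68.4 CPM in Lv_AI662270 and 135 CPM in Lv_NC.

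No chromosome-wide shift went along with these values. The members lie on 8 chromosomes (Bcl2l1 with Bcl2l11 on chromosome 2, Bax with Bbc3 on chromosome 7), and the median log2 ratio of the measured genes of those chromosomes was between -0.03 and 0.03. For Pmaip1, on chromosome 18 from 66458604 to 66465550, the median of the 20 nearest measured genes was 0.17, against its own -0.98. For Bcl2l11, on chromosome 2 from 128126038 to 128162547, it was -0.22, against its own 0.62. Bcl2l1, on the same chromosome from 152780668 to 152831728, was at -0.42 with neighbours at 0.18.

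Summed by role, the anti-apoptotic genes had 4679 counts or 300.3 CPM in Lv_AI662270 and 5665 counts or 373 CPM in Lv_NC, a 1.24-fold lower sum (1.19 to 1.29). The effector genes had 2181 counts or 140.0 CPM in Lv_AI662270 and 1841 counts or 121 CPM in Lv_NC, a ratio of 1.16 (1.09 to 1.23). The sum of effector reads to anti-apoptotic reads, which no scaling of the libraries affects, was 0.466 in Lv_AI662270 and 0.325 in Lv_NC. The ratio of these ratios was 1.43 (1.33 to 1.54, exact conditional interval). It compares these 2 libraries, and with no replicate its size cannot be set against the spread between cultures.

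The BH3-only genes had 3991 counts or 256 CPM in Lv_AI662270 and 4417 counts or 291 CPM in Lv_NC, a 1.13-fold lower sum (1.09 to 1.18). That direction rested on 1 gene. Without Pmaip1, the most abundant of the 5 in counts over both libraries together, the ratio of the remaining 4 was 1.21 in favour of Lv_AI662270. Set against the anti-apoptotic genes, BH3-only reads came to 0.853 per anti-apoptotic read in Lv_AI662270 and 0.780 in Lv_NC, a ratio of ratios of 1.09 (1.03 to 1.16). Weighted by gene length the same quantity was 0.955 in Lv_AI662270 and 0.976 in Lv_NC, so its direction depended on the weighting.

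**Figure D3:**
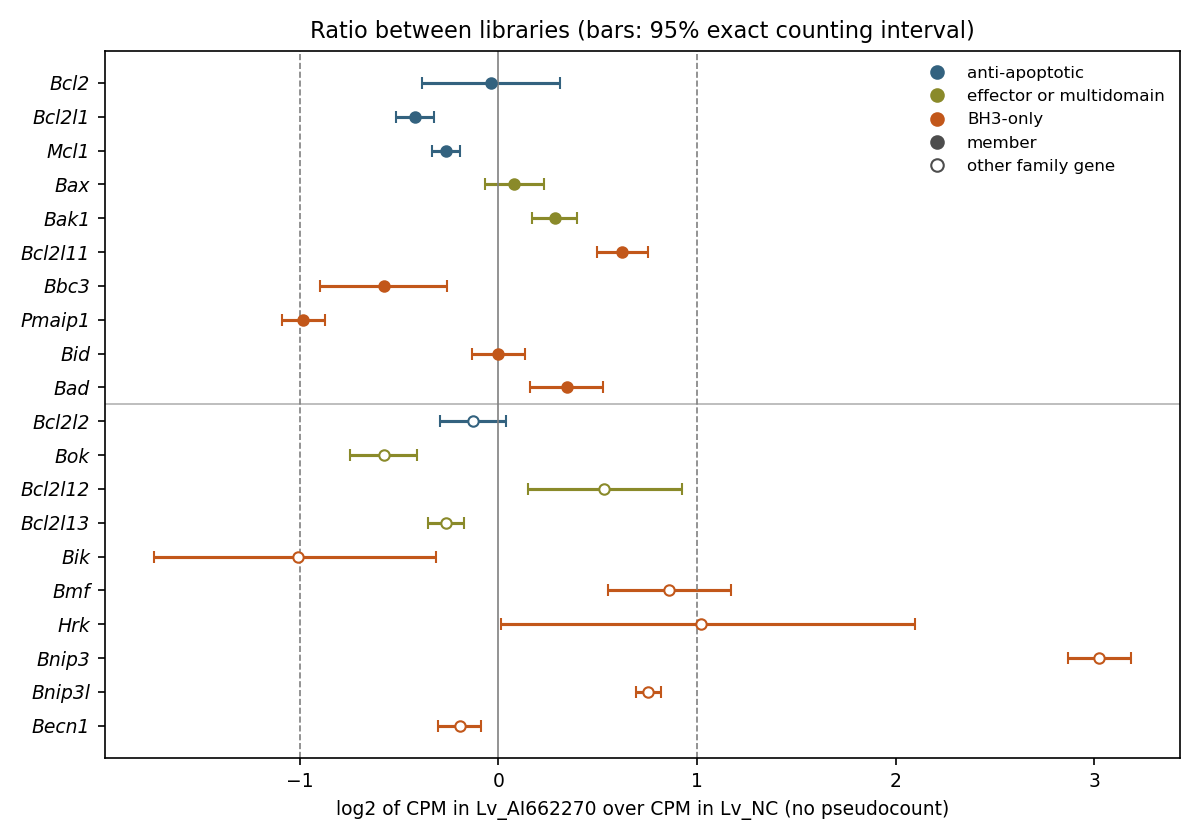
Points are log2 of the CPM in Lv_AI662270 over that in Lv_NC, without a pseudocount, for the 10 members (filled) and the 10 other measured family genes (open), with 95% exact counting intervals. Dashed lines mark a ratio of 2 in either direction, and Bnip3 is the point whose whole interval lies beyond one of them.

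Pairs of genes within a library show how the members stood to each other. Bax to Bcl2, a ratio often quoted as an index of apoptotic priming, was 5.49 reads per read in Lv_AI662270 and 5.06 in Lv_NC, with a ratio of ratios of 1.08 (0.833 to 1.41) that held 1. Bax to Bcl2l1 was 0.493 in Lv_AI662270 and 0.349 in Lv_NC, 1.41-fold higher (1.25 to 1.60). Bcl2l11 to Mcl1 was 0.433 in Lv_AI662270 and 0.234 in Lv_NC, 1.85-fold higher (1.67 to 2.05). Pmaip1 to Mcl1, a pair whose proteins bind each other, went the other way, with 0.358 in Lv_AI662270 and 0.588 in Lv_NC, 1.64-fold lower (1.503 to 1.80).

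For Bbc3 to Mcl1 the value was 0.0467 in Lv_AI662270 and 0.0578 in Lv_NC, and the ratio of ratios of 0.807 (0.642 to 1.01) held 1. Bcl2l1 to Mcl1 was 0.524 in Lv_AI662270 and 0.582 in Lv_NC, 1.11-fold lower (1.02 to 1.21). Bcl2l11 to Pmaip1, a pair picked after its values were seen because it joins the extremes of the family, was 1.21 in Lv_AI662270 and 0.397 in Lv_NC.

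To compare levels between genes, CPM was divided by the deposited gene length in kilobases. On this scale of level per length Mcl1 led the family in both libraries, with 55.9 CPM per kilobase (53.9 to 57.98) in Lv_AI662270 and 67.2 (64.99 to 69.5) in Lv_NC. Bcl2 was last, at 0.981 CPM per kilobase (0.825 to 1.16) in Lv_AI662270 and 1.01 (0.846 to 1.19) in Lv_NC. The order below Mcl1 differed. In Lv_AI662270 Mcl1 was followed by Bak1 (37.6), Bax (31.3), Pmaip1 (25.9), Bcl2l1 (21.8), Bad (17.8), Bid (16.98), Bcl2l11 (10.3) and Bbc3 (4.20), and only the neighbours Bad and Bid had overlapping counting intervals.

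In the Lv_NC library Pmaip1 was second at 51.1 CPM per kilobase, followed by Bak1 (30.9), Bax (29.6), Bcl2l1 (29.2), Bid (16.97), Bad (14.1), Bcl2l11 (6.68) and Bbc3 (6.26). There the neighbours Bak1 and Bax, Bax and Bcl2l1, and Bcl2l11 and Bbc3 had overlapping intervals. Anti-apoptotic genes made up 35.3% of the family's summed level per length in Lv_AI662270 and 38.5% in Lv_NC, effector genes 30.9% in Lv_AI662270 and 23.9% in Lv_NC, and BH3-only genes 33.7% in Lv_AI662270 and 37.6% in Lv_NC. Pmaip1 alone was 11.6% in Lv_AI662270 and 20.2% in Lv_NC. A deposited length longer than the transcript in use would lower a gene's level on this scale, and those of Bcl2 (9157 bases) and Bcl2l11 (8029 bases) were the longest of the 10.

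**Figure D4:**
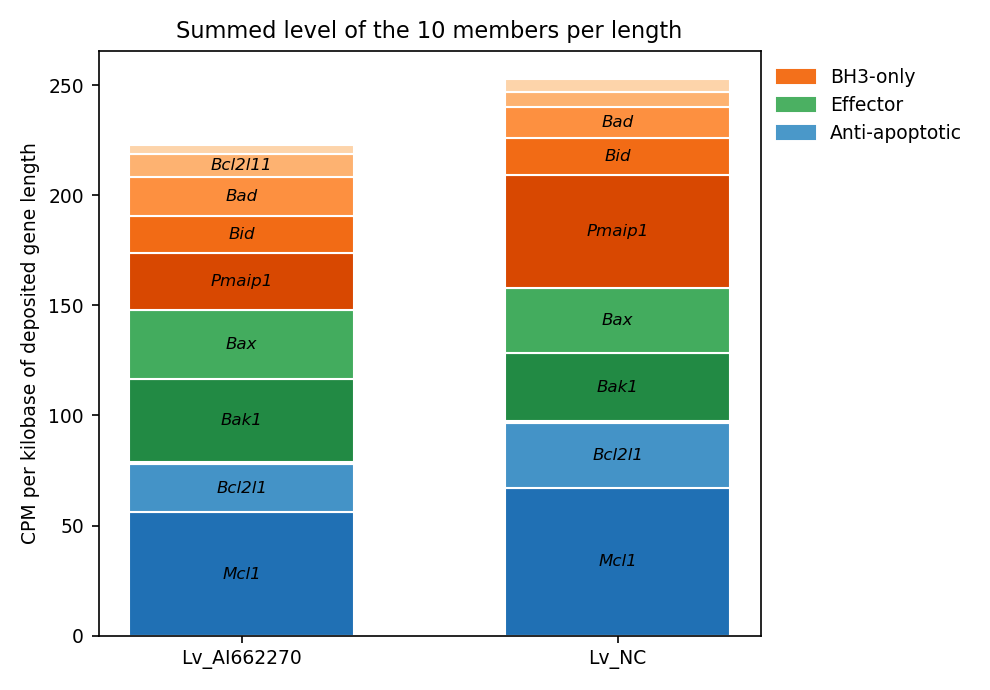
Stacked bars give the level per length of the 10 members in CPM per kilobase of deposited gene length for the Lv_AI662270 library (left) and the Lv_NC library (right), in blue for anti-apoptotic, green for effector and orange for BH3-only genes; segments too thin to hold a name are Bcl2 (on top of Bcl2l1), Bbc3 (top) and, in Lv_NC, Bcl2l11. Pmaip1 takes 25.9 in Lv_AI662270 and 51.1 in Lv_NC.

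Gene counts do not separate splice forms, several of which act differently in this family. BCL-XL and the shorter pro-apoptotic BCL-XS come from Bcl2l1, for which the annotation lists 9 transcripts, and the BIM forms of different potency come from Bcl2l11, with 8. Mcl1 has 2 listed transcripts, Bax 6, Bak1 4, Bid 5, Bad 9, Bbc3 4, Pmaip1 3 and Bcl2 2.

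Of 17 other BCL2 family genes, 10 were measured, and 1 of these passed the 2-fold rule (11.3% of all measured genes did). It was Bnip3, a mitophagy receptor of the outer membrane with a BH3-like segment, which was 8.13-fold higher (7.29 to 9.08), at 196 CPM in Lv_AI662270 and 24.1 CPM in Lv_NC. Its relative Bnip3l was at 347 CPM in Lv_AI662270 and 205 CPM in Lv_NC, a ratio of 1.69 (1.62 to 1.77). Bmf, which like BIM binds dynein light chains, was at 15.98 CPM in Lv_AI662270 and 8.81 CPM in Lv_NC, a ratio of 1.81 (1.46 to 2.25). The scarce BH3-only genes Hrk (27 counts in Lv_AI662270 and 13 in Lv_NC) and Bik (27 counts in Lv_AI662270 and 53 in Lv_NC) differed in opposite directions with wide intervals, 1.01 to 4.28 for Hrk and 0.301 to 0.805 for Bik.

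Becn1, the autophagy gene of Beclin 1, was at 81.3 CPM in Lv_AI662270 and 93.0 CPM in Lv_NC. The effector-like gene Bok was at 31.0 CPM in Lv_AI662270 and 46.2 CPM in Lv_NC, 1.49-fold lower (1.33 to 1.68). Bcl2l13 was at 115 CPM in Lv_AI662270 and 138 CPM in Lv_NC, and Bcl2l12, which overlaps Irf3, was at 9.05 CPM in Lv_AI662270 and 6.25 CPM in Lv_NC. Bcl2l2, the gene of the anti-apoptotic BCL-W, was at 37.9 CPM in Lv_AI662270 and 41.4 CPM in Lv_NC, with a ratio of 0.915 (0.817 to 1.03). Bcl2a1a, Bcl2a1b, Bcl2a1c, Bcl2a1d, Bcl2l10 and Bcl2l14 had 0 counts in both libraries, and Bcl2l15 had 1 in each. The Bcl2a1 genes are near-identical copies whose reads may be split or dropped, so their 0 is uncertain.

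Around the family, 84 other apoptosis genes were listed, the 17 above included. Of 75 measured, 4 were higher and 7 lower by the 2-fold rule (14.7%, against 11.3% of all measured genes), and their median log2 ratio was -0.02. The list of apoptosome and caspase genes (7 of 7 measured, 1 higher), which includes Apaf1 and Cycs, had a median of 0.28. Casp6, an executioner caspase, was at 29.01 CPM in Lv_AI662270 and 12.4 CPM in Lv_NC, 2.35-fold higher (1.97 to 2.80). The list of IAP proteins and their antagonists also held Aifm1 and Endog, which encode neither. With them, this IAP list (9 of 9 measured, 1 higher) had a median of -0.02, which was above 0 under the other 3 scalings and on FPKM. The median without Aifm1 and Endog was not computed, and Endog was the gene past the rule. Endog, a mitochondrial nuclease, was at 8.47 CPM in Lv_AI662270 and 3.03 CPM in Lv_NC, 2.80-fold higher (1.99 to 4.01), and overlaps Spout1.

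On the death receptor arm (10 of 11 measured, 1 higher, median 0.13), Fas had 212 counts or 13.6 CPM in Lv_AI662270 and 24 counts or 1.58 CPM in Lv_NC. Fas encodes the receptor whose signal runs through caspase-8 to BID, and it was 8.62-fold higher (5.64 to 13.8), while its ligand gene Fasl had 0 counts in both libraries. The list of mitochondrial partners of the family (10 of 10 measured, 1 lower, median 0.01) also held genes of the endoplasmic reticulum and cytosol. Among these, Itpr2, the gene of a calcium channel of the endoplasmic reticulum, was at 37.9 CPM in Lv_AI662270 and 81.0 CPM in Lv_NC. It was 2.14-fold lower (1.94 to 2.36).

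Transcription factors known to act on family members held 4 lower genes of 13 measured (30.8%, against 5.72% lower among all measured genes). The list was chosen with earlier results of these data known, so this share is a description. Its median was -0.04, and was above 0 when libraries were scaled by total counts (0.06) or upper quartiles. Atf3 was at 57.1 CPM in Lv_AI662270 and 439 CPM in Lv_NC, 7.69-fold lower. Myc was at 71.2 CPM in Lv_AI662270 and 471 CPM in Lv_NC, 6.62-fold lower (6.21 to 7.05). Ddit3, the gene of CHOP, was 3.72-fold lower (3.28 to 4.22) and overlaps Mars, and Atf4 was 3.09-fold lower (3.005 to 3.18). Trp53 itself was at 258 CPM in Lv_AI662270 and 267 CPM in Lv_NC, a ratio of 0.967 (0.926 to 1.01), and Foxo3 was at 157 CPM in Lv_AI662270 and 101 CPM in Lv_NC, a ratio of 1.56 (1.46 to 1.66). These last 2 genes were picked after their values were seen. What these factors contribute to the values of Pmaip1, Bbc3 or Bcl2l11 was not tested.

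The list of genes that act on the members' proteins held 2 genes past the rule of 17, both lower (11.8%, near the 11.3% of all measured genes past the rule in either direction, of which 5.72% lower), with a median of -0.16. Both encode PIM kinases, which phosphorylate BAD. Pim1 was at 16.6 CPM in Lv_AI662270 and 35.8 CPM in Lv_NC, 2.16-fold lower (1.86 to 2.52), and Pim3 was at 96.3 CPM in Lv_AI662270 and 193 CPM in Lv_NC, 2.01-fold lower (1.89 to 2.14). Pim3 no longer passed the rule under any of the other 3 scalings, with 2 CPM added or on FPKM. Itpr2 no longer passed with total counts or FPKM, nor Pim1 with total counts. The dynein light chain genes Dynll1 and Dynll2, whose products tether BIM and BMF and which were picked after their values were seen, were at 265 and 164 CPM in Lv_AI662270, against 149 and 117 CPM in Lv_NC, with ratios of 1.77 (1.68 to 1.86) for Dynll1 and 1.41 (1.33 to 1.498) for Dynll2.

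**Figure D5:**
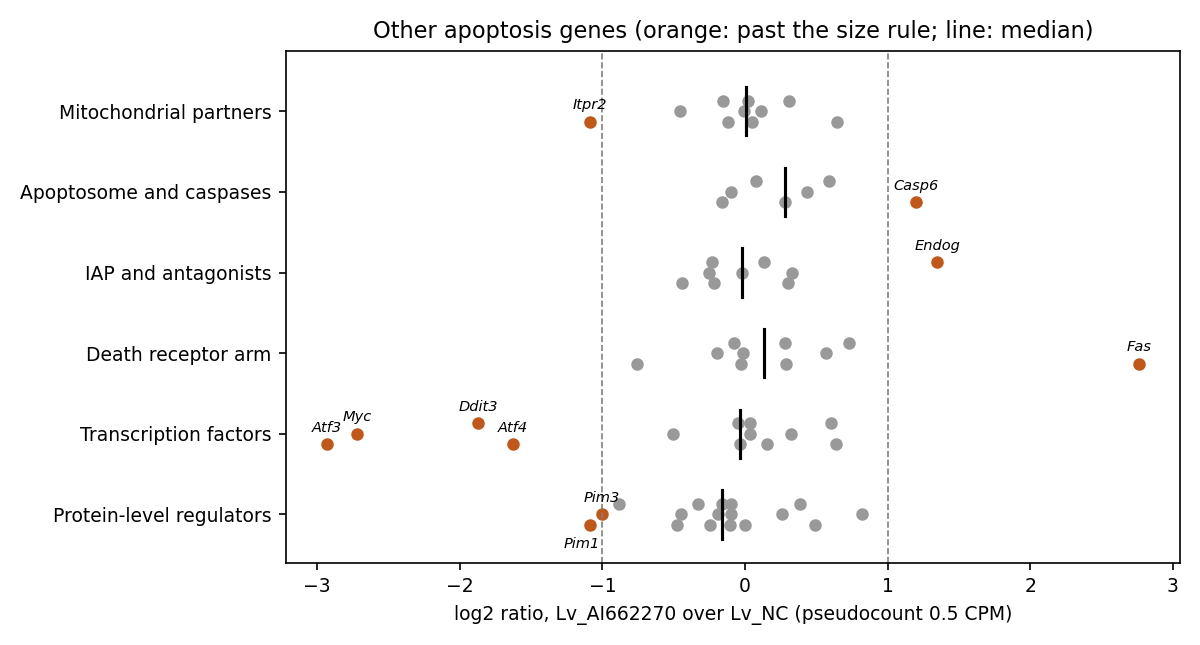
Each point is a measured gene of 1 of 6 lists of apoptosis genes outside the family, placed by its log2 ratio of Lv_AI662270 over Lv_NC with 0.5 CPM added. Orange points passed the 2-fold rule and are named, dashed lines mark 1 and -1, and black bars mark the medians, which lie between -0.16 and 0.28.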

How the data were processed

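The members and gene lists were chosen with earlier results of these data known. Build mm10, TopHat2 and CASAVA 1.4 are listed in the submitters' processing notes, while the counting tool, its strand setting and the gene annotation were stated in no source used here. The count columns that the authors deposited hold whole reads per gene without normalization. The deposited FPKM values divide each count by gene length and by 15391166, the same number for each library. DESeq2 size factors were 1 for both libraries and gave that same library size, so FPKM and DESeq2 scaling treated the libraries alike. Signal columns (counts the authors rescaled, per the file headers) were left aside. The authors' deposited table also holds log2 fold changes and p-values.

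Counts were scaled with TMM (edgeR 4.0.16, R 4.3.3) and analysed in Python 3.11.15 with scipy 1.17.1. Genes whose mean reached 1 CPM counted as measured. With 1 library per group no test across genes was run. A size rule was used: a log2 ratio at or beyond 1 or -1 with a pseudocount of 0.5 CPM, and a 95% Clopper-Pearson interval of the ratio without 1. No pseudocount enters the folds. The interval of a ratio of ratios is the exact conditional one of an odds ratio. Reads carried no molecular identifiers. The rule was tested on simulated data. All 27 family genes were named whatever their values, and in each other list the genes past the rule were named, at most 4. GENCODE M21 gave transcripts, overlaps and sequences.

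Alternatives were scaling by total counts, DESeq2 1.42.0 size factors or upper quartiles, pseudocounts of 0.1 and 2 CPM, filters removed or raised to 5 CPM, other thresholds (1.5-fold, 3-fold), and FPKM in place of counts. The values of 1 marker gene are not reported here.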

Additional observations from a re-analysis of the deposited data

How the results depend on the processing

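The count of 0 members past the 2-fold rule held under each alternative except the 1.5-fold threshold, which called 2 members, 1 higher and 1 lower. The 3-fold threshold and the filter changes could not add a call, since all 10 members were measured and none passed at 2-fold. On FPKM, 9 members were measured, Bcl2 falling below the minimum. Of 80 member values under alternatives, 78 stayed inside the counting interval and none of the values whose interval left out 1 changed sign. The 2 others were Bcl2l1 at -0.32 and Mcl1 at -0.17 (log2), both scaled by total counts. Removing or raising the filter leaves a member's log2 ratio as it was, so the values under those alternatives could not move. DESeq2 size factors and FPKM share a library scaling and are not separate checks of it. Members with an interval above 1 numbered 4 under scaling by total counts or upper quartiles, with Bax as the added one, against 3; the 4 below 1 were the same genes under each scaling. The medians of the 12 lists moved by at most 0.18 (log2), and 2 of them, of the IAP list and the transcription factors, took the other sign under some scalings (the IAP list on FPKM too). Other apoptosis genes past the rule numbered 23 at 1.5-fold (13 higher) and 6 at 3-fold (2 higher and 4 lower), against 11 at 2-fold, and 4 were lower when scaled by total counts, which lost Itpr2, Pim1 and Pim3; Pim3 was also lost under DESeq2 size factors, upper quartiles, 2 CPM added and FPKM, which lost Itpr2 too. All measured genes past the rule numbered 973 (400 higher) with 2 CPM added, 963 (391 higher) at a mean of 5 CPM, 995 (432 higher) on FPKM, 3598 (1705 higher, 1893 lower) at 1.5-fold and 509 (247 higher, 262 lower) at 3-fold, against 1501 (742 higher, 759 lower). The ratio of the anti-apoptotic sum was 0.806, against 0.862 scaled by total counts, 0.845 by upper quartiles and 0.763 without Mcl1. The effector ratio was 1.16, against 1.24 scaled by total counts and 1.06 without Bak1. The BH3-only ratio was 0.882, against 0.943 scaled by total counts, 0.925 by upper quartiles, 0.791 per kilobase and 1.21 without Pmaip1, which reverses it because the other 4 sum the other way. Beyond the last, the cause of these shifts was not tested. No paired analysis was possible because each group holds 1 library, and no library could be left out.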
